A study of Homo sapiens with 17 samples.

Results

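MicroRNA genes and their precursors were followed through 3 tables of m6A-Seq regions, 1 per prostate cell line. A region was taken as a member when its overlap cell named an exon (E) or a promoter with an exon (PE) of a gene whose symbol is MIR and a digit, or begins with MIRLET, and does not end in HG. This gave 474 of 326944 regions, with 163 of 110260 in LNCaP, 133 of 77311 in 22Rv1 and 178 of 139373 in HPr1AR. They name 237 microRNA genes, 202 of which have a hairpin in the RefSeq table (GRCh38.p14). The tag was PE in 173 of the overlaps of LNCaP, 145 of 22Rv1 and 189 of HPr1AR, and E in 1 overlap of HPr1AR.

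LNCaP and 22Rv1 are prostate cancer lines, and HPr1AR is a non-malignant prostate line. All groups carried the genotype label WT and the treatment label vehicle. An antibody against N6-methyladenosine (m6A), a methylated adenosine of RNA, served for the pull-down, and immunoglobulin G (IgG) served as the background. The labels give 17 samples in 6 groups, with 3 m6A and 3 IgG samples each in LNCaP and HPr1AR, and 2 m6A and 3 IgG samples in 22Rv1. Which samples entered each table is not known here: the description label of 11 of the 17 samples names the table of another line than the sample's own. The values are given by the line in the name of the table. Values for single samples are not part of the tables, which leaves the spread among replicates unknown, and the intervals below cover counting error only. The column headers do not state the direction of the fold. Its numerator is taken to be m6A after the names of the tables, and "higher" means a higher read rate in the numerator.

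MicroRNAs are cut from hairpins within longer transcripts. Drosha and its partner DGCR8, together the Microprocessor, release the hairpin in the nucleus, exportin 5 carries it out, Dicer trims it to a duplex, and an Argonaute protein keeps a strand that pairs with messenger RNAs through its seed. Many hairpins lie in introns or exons of protein-coding genes or of non-coding host transcripts. The m6A writer METTL3 is known to mark primary microRNA transcripts, and the mark is read by HNRNPA2B1 and DGCR8 during hairpin release. In the prostate, the miR-200 family is known for keeping the epithelial state, miR-34a as a p53 target, and miR-205 as a product of basal cells.

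The mature sequences of the microRNAs that recur below are shown to group them by seed. Capitals mark the seed, bases 2 to 8 from the 5′ end, and all sequences are from RefSeq (GRCh38.p14). miR-106b-5p and miR-93-5p share a seed, as do miR-200c-3p and miR-429, miR-221-3p and miR-222-3p, and the 3 miR-29 members. miR-141-3p differs from miR-200c-3p in its seed, and miR-25-3p, which shares a transcript with miR-106b and miR-93, has another seed.
hsa-miR-106b-5p: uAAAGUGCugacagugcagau
hsa-miR-93-5p: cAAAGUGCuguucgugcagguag
hsa-miR-25-3p: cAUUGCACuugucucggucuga
hsa-miR-200c-3p: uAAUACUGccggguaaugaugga
hsa-miR-429: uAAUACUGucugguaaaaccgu
hsa-miR-141-3p: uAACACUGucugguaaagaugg
hsa-miR-221-3p: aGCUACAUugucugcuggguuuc
hsa-miR-222-3p: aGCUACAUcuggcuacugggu
hsa-miR-29a-3p: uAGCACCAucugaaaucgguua
hsa-miR-29b-3p: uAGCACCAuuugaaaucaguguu
hsa-miR-29c-3p: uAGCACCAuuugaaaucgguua
hsa-miR-34a-5p: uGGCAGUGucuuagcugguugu
hsa-miR-210-3p: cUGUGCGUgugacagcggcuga

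The representative window, which carries a region's fold, fell on the hairpin itself in at least 1 line for 16 genes, 14 of them with a RefSeq hairpin. The hairpins printed next are those of the 5 genes that were also called higher with the window there, by the ratio described below, so they were chosen by that call. Capitals mark the words of the m6A writer's known consensus. These are the 18 words of 5 bases that begin with A, G or U, go on with A or G, hold A and then C next, and end in A, C or U. They were searched on the hairpin strand only, where they may overlap. The hairpins lie at chr19:10403458-10403538 (MIR1181, minus strand), chr1:231019828-231019924 (MIR1182, minus strand), chr16:30893903-30893985 (MIR762, plus strand), chr15:96333261-96333307 (MIR1469, plus strand) and chr9:136886733-136886803 (MIR4479, plus strand) of GRCh38.p14.
MIR1181: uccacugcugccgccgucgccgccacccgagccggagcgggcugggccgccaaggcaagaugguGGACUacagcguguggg
MIR1182: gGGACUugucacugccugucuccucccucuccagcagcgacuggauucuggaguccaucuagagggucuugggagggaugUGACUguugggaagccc
MIR762: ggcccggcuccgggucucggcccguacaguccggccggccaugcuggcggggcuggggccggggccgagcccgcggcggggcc
MIR1469: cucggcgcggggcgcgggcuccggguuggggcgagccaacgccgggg
MIR4479: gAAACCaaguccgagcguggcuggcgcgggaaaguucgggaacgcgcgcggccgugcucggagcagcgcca

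At least 1 of the 18 words was present in 125 of the 202 member hairpins (61.9%) and in 1127 of the 1562 hairpins of the RefSeq table (72.2%). The 4 letters GGAC stood in 67 member hairpins (33.2%) and in 427 of the table (27.3%). Both hairpin sets had a median length of 80 bases. Of the 14 RefSeq hairpins that the window touched, 10 held a word. MIR1181 and MIR1182 each hold GGACU, MIR4479 holds AAACC, and MIR762 and MIR1469 hold none of the words. A match describes letters and shows no methylated base.

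Whole reads behind each deposited fold were rebuilt before any comparison. The fold is that of the representative window. Rebuilt reads and read ratios given for a region or gene are therefore those of this 1 window of 20 bp, not totals of the region. The authors' deposited table marks every region as up, and by its adjusted p 163 of 163 microRNA regions of LNCaP, 133 of 133 of 22Rv1 and 177 of 178 of HPr1AR passed 0.05. Over all regions of the authors' deposited table the shares were 95.4%, 99.3% and 96.5%, so that call does not tell members apart. The 1 member that did not pass in the authors' deposited table lies over MIR3936 in HPr1AR, named after its values were seen, and rebuilt to 0 numerator reads against 6 reference reads. The deposited fold follows a formula that subtracts the log rate of the reference 2 times, under which 1 numerator read is enough to pass. The rebuilt reads were therefore compared as an ordinary ratio, relative to depths of 3.92 M numerator and 8.87 M reference reads in LNCaP, 3.30 M and 4.82 M in 22Rv1, and 5.13 M and 11.7 M in HPr1AR.

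By the ordinary ratio most microRNA regions had more m6A than IgG reads per depth. The exact two-sided binomial test, with Benjamini-Hochberg adjustment over all regions of a line at 0.05, called 101 regions higher in LNCaP (62.0%, against 37.6% of all regions). In 22Rv1 92 were higher (69.2%, against 54.3% of all regions). In HPr1AR 122 were higher (68.5%, against 38% of all regions). None was called lower in any line by this test (0.0989%, 0.752% and 0.0911% of all regions were), and at an unadjusted p under 0.05 the counts of lower members were 0, 1 and 0. A further 4, 2 and 3 members stayed undetermined, because their reads could only be bounded from below. The test and the intervals use the representative window alone and make no allowance for the number of windows in a region. How that window was picked is not given in the sources used here, and the part of such picking in the calls was not tested.

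The median log2 read ratio of the microRNA regions was 1.78 in LNCaP, 2.11 in 22Rv1 and 1.97 in HPr1AR. Over all regions it was 1.38, 2.13 and 1.32 in the same lines. In the plot of reads, numerator reads that could only be bounded enter at their smallest possible number. Reference reads printed beside "at least" are those that the fold gives at that number, so they are smallest values too. Adjusted p of such regions were also taken at these reads. The regions with bounded reads are the members with a p of 0 (32 in LNCaP, 0 in 22Rv1 and 52 in HPr1AR) and those for which no whole reads were found (7, 21 and 0).

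**Figure D1:**
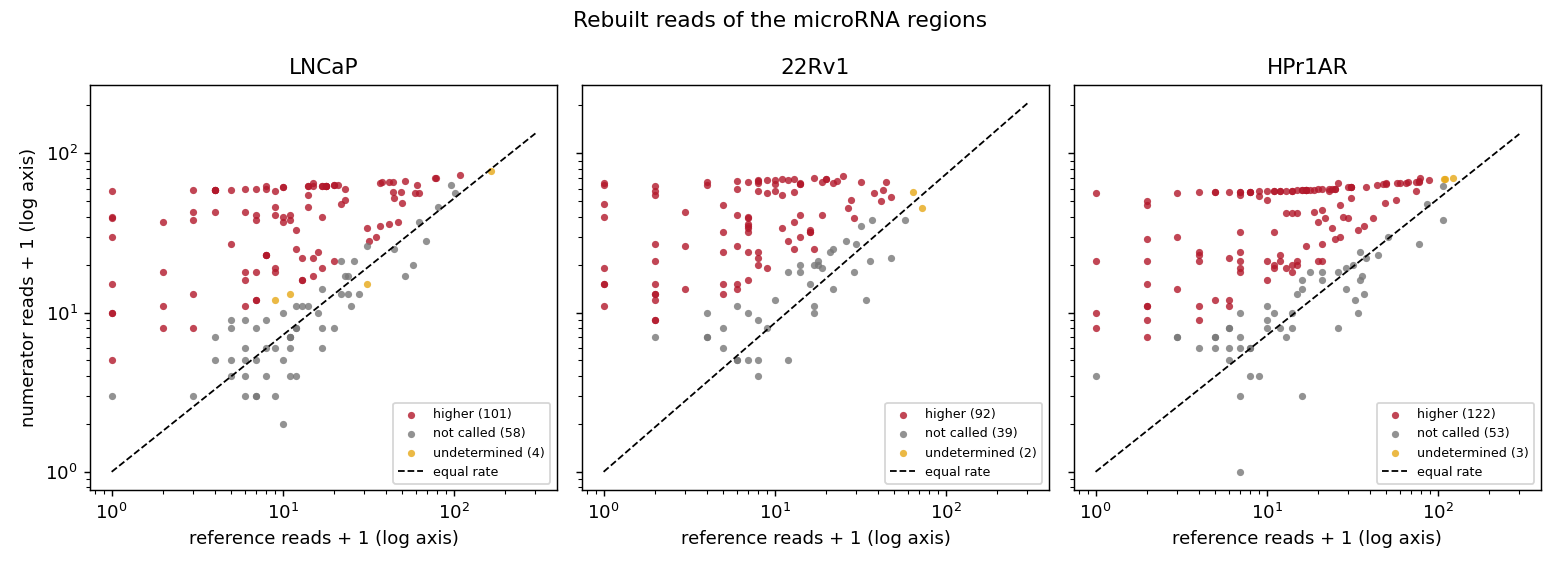
Rebuilt numerator reads (y axis, log scale) against reference reads (x axis, log scale) in the representative window of each microRNA region, 1 added to both, in LNCaP, 22Rv1 and HPr1AR. The dashed line is the equal read rate. The 101, 92 and 122 regions called higher lie above the line, and no region shows more than 76, 71 and 69 numerator reads, those entered as lower bounds included.

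Width moved with these shares. MicroRNA regions had a median width of 2060 bp in LNCaP, 1770 bp in 22Rv1 and 2055 bp in HPr1AR, against 250, 260 and 220 bp for all regions. Their median reads, both pull-downs summed, were 39, 44 and 51.5, against 10, 13 and 11 for all regions. Among regions under 500 bp, 4 of 25 members were higher in LNCaP (16%, against 21.9% of all such regions), 4 of 21 in 22Rv1 (19%, against 41.9%) and 8 of 27 in HPr1AR (29.6%, against 24.6%). Among regions over 2000 bp, 62 of 84 members were higher in LNCaP (73.8%, against 83.5%), 48 of 60 in 22Rv1 (80.0%, against 88.8%) and 72 of 92 in HPr1AR (78.3%, against 84.3%). From 500 to 2000 bp, 35 of 54 were higher in LNCaP (64.8%, against 62.7%), 40 of 52 in 22Rv1 (76.9%, against 76.5%) and 42 of 59 in HPr1AR (71.2%, against 63.2%). Within a width class the members' share was thus close to or under that of all regions in LNCaP and 22Rv1, and in HPr1AR it was above it up to 2000 bp and under it in the widest class.

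**Figure D2:**
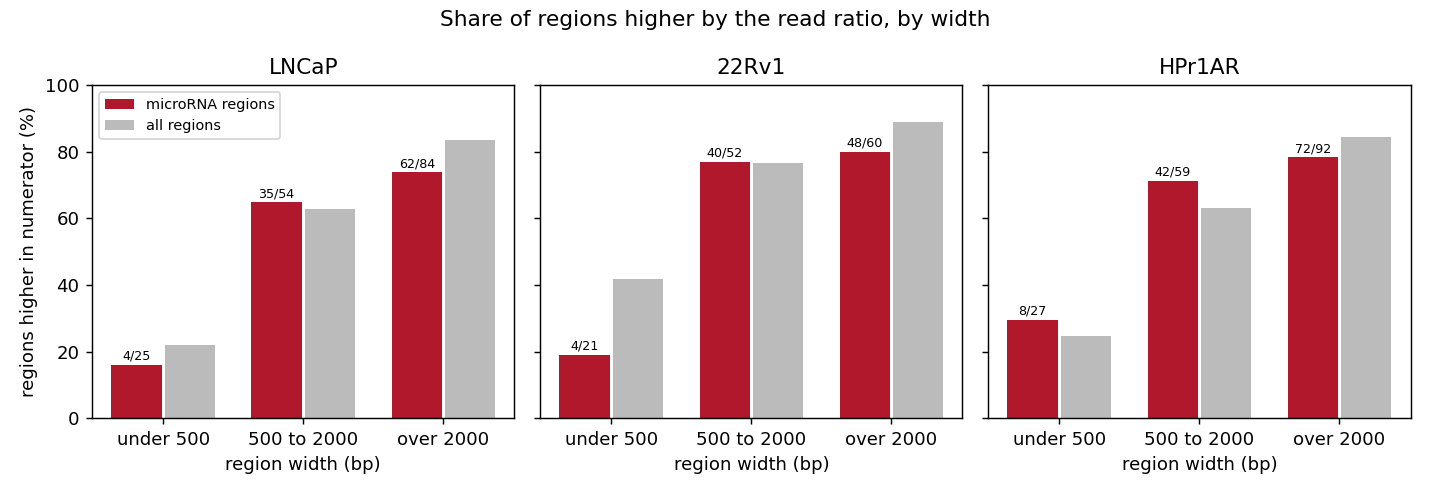
Percent of regions higher by the read ratio (y axis) by region width in bp (x axis), for microRNA regions (red, with counts) and all regions (grey) of LNCaP, 22Rv1 and HPr1AR. From 500 to 2000 bp the members' 64.8% in LNCaP and 76.9% in 22Rv1 stand beside 62.7% and 76.5% of all regions.

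Most microRNA regions also covered an exon of another gene, so that their reads cannot be divided between the microRNA transcript and that gene. The overlap cell named such an exon in 129 members of LNCaP, 113 of 22Rv1 and 141 of HPr1AR, and of these 89, 75 and 105 were higher. Among all regions over an exon 42.1%, 49.8% and 43.5% were higher. An intron with no exon was named in 25, 12 and 22 members, of which 8 were higher in LNCaP (background 24.5%), 10 in 22Rv1 (background 55.7%) and 7 in HPr1AR (background 24.5%). No other gene was named in 7, 6 and 14 members, of which 4, 5 and 10 were higher. Only a promoter of another gene was named in 2, 2 and 1 members, of which 0, 2 and 0 were higher. For these 2 kinds the share over all regions of the same kind was not computed, and over all regions of any kind it was 37.6%, 54.3% and 38%.

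The host was on the strand of the microRNA in most cases. A host exon on the same strand was named for 122 pairs of microRNA and region in LNCaP, 109 in 22Rv1 and 129 in HPr1AR, and 83, 67 and 95 of these lay in higher regions. Where the only exon was on the opposite strand, 15 of 16 pairs were in higher regions in LNCaP, 14 of 14 in 22Rv1 and 16 of 18 in HPr1AR. Both kinds stand against 42.1%, 49.8% and 43.5% of all regions over an exon. They were also wide, with a median of 1875, 2070 and 1935 bp for the opposite strand and 2235, 1940 and 2550 bp for the same strand, and the part of width in these counts was not tested. Whether the counting used strand is not given in the sources used here, so reads of opposite-strand genes cannot be told apart from those of the microRNA transcript.

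The representative window sat on the hairpin in few regions. Hairpin positions in the coordinates of the tables were read from the distances that neighbouring regions give to each gene, and the place of the representative window from its index. In LNCaP the window lay on a hairpin in 9 regions, possibly on it in 17 and off it in 126, with 11 not placed. The counts were 4, 16, 102 and 11 in 22Rv1, and 7, 19, 139 and 13 in HPr1AR. Where a region names more than 1 microRNA, the gap given is to 1 of the hairpins, not always the nearest. Windows off the hairpin were at least 453.5 bp away in the median in LNCaP, 434.5 bp in 22Rv1 and 359 bp in HPr1AR. In these regions the hairpin met a median of 4.13%, 4.79% and 4.30% of the window positions in the same lines. In regions with the window on the hairpin it met 55.6%, 24.2% and 55.6%. Whether the window sat on hairpins more or less often than such shares give was not tested. Of the regions with the window on the hairpin, 1 of 9 was higher in LNCaP, 1 of 4 in 22Rv1 and 3 of 7 in HPr1AR, and of those with it off the hairpin 89, 77 and 101 were. Among all regions 37.6%, 54.3% and 38% were higher in the same lines, and among all regions under 500 bp 21.9%, 41.9% and 24.6%. Regions with the window on a hairpin were also narrower, with a median width of 180 bp in LNCaP, 470 bp in 22Rv1 and 180 bp in HPr1AR, against 2290, 2125 and 2500 bp for regions with the window off it. The part of width in that contrast was not tested.

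**Figure D3:**
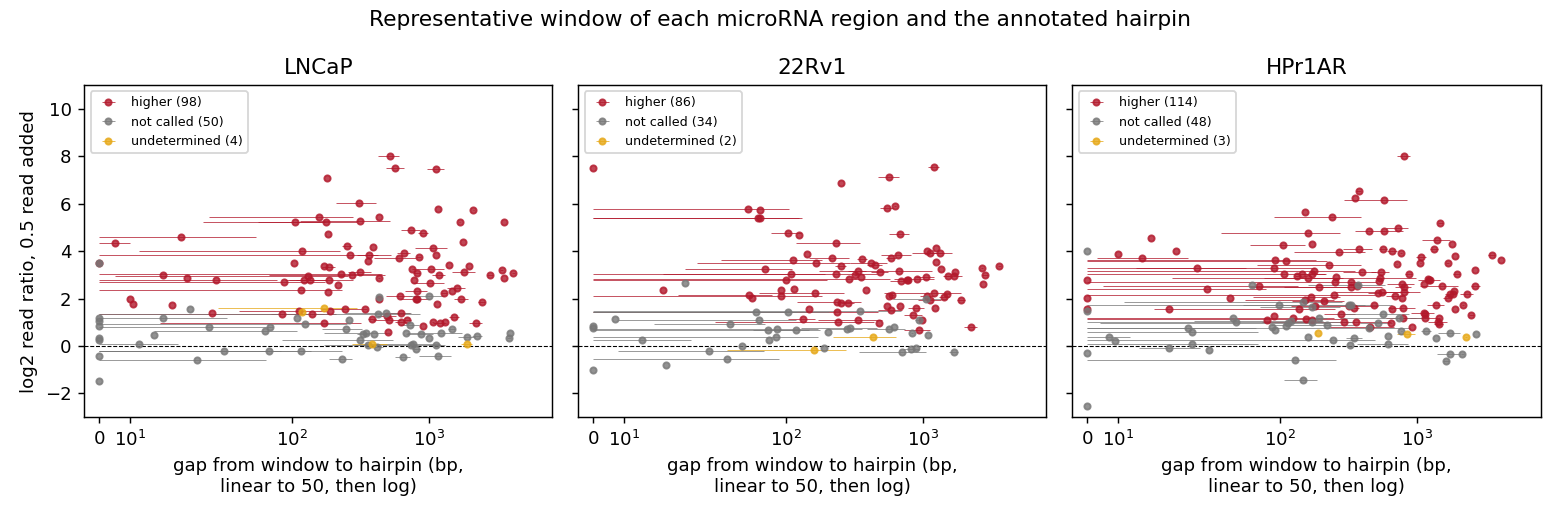
Log2 read ratio with 0.5 read added (y axis) against the gap in bp between the representative window and 1 annotated microRNA hairpin of the region, not always the nearest (x axis, linear to 50 bp and log beyond); horizontal lines give the range of gaps that a region's missing windows allow. Windows at a gap of 0 include both the MIR1182 region of 22Rv1, far above the equal rate, and several uncalled regions, while most higher regions lie beyond 100 bp.

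MIR1181, singled out after its values were seen, was the gene whose window fell on the hairpin in all 3 lines. Its region starts at 10514041 on chromosome 19 and covers an exon of CDC37, which encodes a co-chaperone of HSP90 for kinases. It held 20 numerator reads against 25 reference reads in LNCaP, 23 against 20 in 22Rv1 and 38 against 29 in HPr1AR. The log2 read ratio was 0.86 in LNCaP (95% exact interval -0.07 to 1.76), 0.75 in 22Rv1 (-0.18 to 1.69) and 1.58 in HPr1AR (0.85 to 2.33). The exact binomial test called it higher in HPr1AR, at an adjusted p of 7.29e-05, and not in LNCaP or 22Rv1, at 0.155 and 0.186. The intervals of the 3 lines overlap. No test was run of the lines against each other.

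MIR1182 gave the clearest signal at a hairpin. It lies in an exon of FAM89A on chromosome 1, on the minus strand. Its region held at least 59 numerator reads against 5 reference reads in LNCaP, 62 against 0 in 22Rv1 and at least 56 against 5 in HPr1AR. In 22Rv1 the region was 520 bp wide, from 231155331 to 231155850, and its window lay on the hairpin, which the tables place from 231155574 to 231155670. In HPr1AR the window lay 21 bp from the hairpin, and in LNCaP between 0 and 54 bp. The log2 read ratio was at least 4.74 in LNCaP, at least 4.92 in 22Rv1 (taking 3 reads as the reference floor), and at least 4.68 in HPr1AR, each higher by the exact binomial test (adjusted p 5.96e-23, 8.08e-22 and 1.20e-21).

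MIR762 and MIR1469 met their window in a single line. MIR762, named after its values were seen, lies on the plus strand opposite an exon of BCL7C, and had its window on the hairpin in HPr1AR, with 38 numerator reads against 21 (log2 read ratio 2.05, 1.24 to 2.89). In LNCaP and 22Rv1 its window lay at least 825 and 774 bp off, with 42 reads against 3 and 32 against 15. MIR1469, within an exon of the nuclear receptor gene NR2F2, had its window on the hairpin in LNCaP, where a 170 bp region held 7 reads against 1 (log2 read ratio 3.98, 1.02 to 9.48). In HPr1AR the region was 2820 bp wide, its window lay at least 1425 bp off the hairpin, and it held at least 56 reads against 3. Both genes were higher by the exact binomial test in each line that lists them.

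MIR4479 and the uncalled genes that follow were named after their values were seen. MIR4479, in an intron of TRAF2, had its window on the hairpin in LNCaP and in HPr1AR, with 4 reads against 4 in LNCaP (log2 read ratio 1.18, -1.25 to 3.60, not called) and 10 against 3 in HPr1AR (2.93, 0.97 to 5.43, higher). The remaining genes with the window on the hairpin were not called there. Among them MIR1282 held 55 reads against 100 in LNCaP (0.32), MIR4709 held 11 against 32 in HPr1AR (-0.35) and MIR3652 held 12 against 23 in LNCaP (0.24).

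Among the microRNAs known in prostate biology or by abundance, 20 of 53 on the list had a region. LNCaP listed 11 of them, 9 higher, 22Rv1 listed 9, 5 higher, and HPr1AR listed 16, 11 higher. Among all regions 37.6%, 54.3% and 38% were higher, and among all microRNA regions 62.0%, 69.2% and 68.5%. The list counts genes and not regions, and genes that share 1 region, such as MIR106B, MIR93 and MIR25, were each counted. Counted by gene in the same way, 110 of 170 microRNA genes were higher in LNCaP, 99 of 144 in 22Rv1 and 132 of 188 in HPr1AR.

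The MIR200C and MIR141 hairpins, which share 1 transcript and fall in no other gene, shared 1 region in LNCaP and in 22Rv1. It held 50 numerator reads against 22 in LNCaP and 36 against 12 in 22Rv1. The log2 read ratio was 2.36 in LNCaP (95% exact interval 1.61 to 3.16) and 2.13 in 22Rv1 (1.16 to 3.21). In HPr1AR a narrower region, which names MIR200C but not MIR141, held 15 reads against 9 (1.93, 0.64 to 3.30). All 3 were higher by the exact binomial test, with adjusted p of 2.57e-10, 1.15e-05 and 0.00763, and the intervals overlap.

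MIR429, the member of the miR-200 family with the seed of miR-200c, was listed in HPr1AR alone. Its region on chromosome 1 from 1103381 to 1105680, in no other gene, held 46 numerator reads against 1 (log2 read ratio 6.71, 4.16 to 12.05). What decides whether a region is listed is not given in the sources used here, and the parts of transcript level and methylation in it were not tested. In bulk RNA fewer cells with a transcript and less RNA per cell cannot be told apart.

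MIR34A, whose transcript names no other gene in its region, was among the strongest members of every line. Its region held at least 59 numerator reads against 7 in LNCaP, 47 against 0 in 22Rv1 and at least 56 against 4 in HPr1AR. The log2 read ratio was at least 4.25 in LNCaP, at least 4.52 in 22Rv1 at the floor of 3 reference reads, and at least 5.0 in HPr1AR. The hairpin itself did not hold the window in any line. The window lay 387 bp from the hairpin in LNCaP, 467 to 667 bp in 22Rv1 and 447 bp in HPr1AR.

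The MIR106B, MIR93 and MIR25 hairpins lie together within MCM7, a gene of the replicative helicase, and shared 1 region per line. That region held 36 numerator reads against 46 in LNCaP, 37 against 57 in 22Rv1 and 48 against 48 in HPr1AR. The log2 read ratio was 0.82 in LNCaP (0.15 to 1.48), -0.08 in 22Rv1 (-0.71 to 0.55) and 1.19 in HPr1AR (0.58 to 1.8). It was higher in LNCaP and HPr1AR by the exact binomial test (adjusted p 0.0430 and 0.000431) and not called in 22Rv1 (0.979), and the lines were not tested against each other.

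MIR210, the hypoxia-induced microRNA, lies in an exon of its host transcript MIR210HG and was higher in all 3 lines. It held at least 62 numerator reads against 20 in LNCaP, at least 61 against 1 in 22Rv1 and at least 56 against 4 in HPr1AR. The log2 read ratios were at least 2.81, 6.48 and 5.0 in the same lines. MIR23B, in a region over AOPEP, was higher in LNCaP (26 reads against 4) and 22Rv1 (13 against 2) and not called in HPr1AR (7 against 5, log2 read ratio 1.68, -0.20 to 3.67).

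Several well-studied microRNAs were listed in HPr1AR alone. MIR205 lies in an exon of MIR205HG and held at least 68 numerator reads against 108. Its ratio, at least 0.52 on the log2 scale, stayed undetermined. MIR21, in a region over an exon of VMP1, held 47 reads against 86 (0.32, -0.23 to 0.85) and was not called. MIR31, in an intron of MIR31HG, held 7 reads against 25 (-0.65, -2.10 to 0.60) and was not called. These 3 regions were thus listed without being called higher.

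MIR221 and MIR222, which share a seed and a transcript, were also listed in HPr1AR alone, in 1 region with 22 reads against 11 (2.19, 1.08 to 3.38) that was higher. MIR22, within its host MIR22HG, was higher there with at least 57 reads against 11. The let-7 genes, a family known for opposing growth programs, gave mixed values. MIRLET7B and MIRLET7A3, the second named after its values were seen, shared 1 region that was higher in LNCaP (20 reads against 19, log2 read ratio 1.25) and not called in 22Rv1 (19 against 13, 1.09). MIRLET7I was higher in HPr1AR (11 against 5, 2.33), MIRLET7A1 was not called there (3 against 7), and MIRLET7C and MIR125B2 were not called in LNCaP (7 against 19 and 6 against 10).

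The genes of this and the next paragraph, apart from MIRLET7C and MIR125B2, were named after their values were seen. MIR29C, of the miR-29 family that is known to target collagens, was higher in all 3 lines in a region that names no other gene. It held 17 numerator reads against 6 in LNCaP, 18 against 8 in 22Rv1 and 9 against 0 in HPr1AR. MIR29A and MIR29B1, which carry the same seed, shared 1 region in HPr1AR alone, with 31 reads against 10 (log2 read ratio 2.82, 1.76 to 4.02).

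MIR423 and MIR3184 lie on opposite strands of 1 locus in a region over an exon of NSRP1, which was higher in every line. The region held 32 numerator reads against 11 in LNCaP, 23 against 6 in 22Rv1 and 41 against 14 in HPr1AR. Its log2 read ratio was 2.72 in LNCaP (1.69 to 3.85), 2.49 in 22Rv1 (1.15 to 4.07) and 2.74 in HPr1AR (1.84 to 3.73), and these intervals overlap. The window lay 107 bp from the MIR423 hairpin in 22Rv1, and in LNCaP and HPr1AR it may have touched it. MIR99A, MIRLET7C and MIR125B2, 3 microRNAs of the host transcript MIR99AHG, were listed in LNCaP alone and none was called higher. MIR99A held 5 numerator reads against 16 (log2 read ratio -0.50, -2.30 to 1.01).

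**Figure D4:**
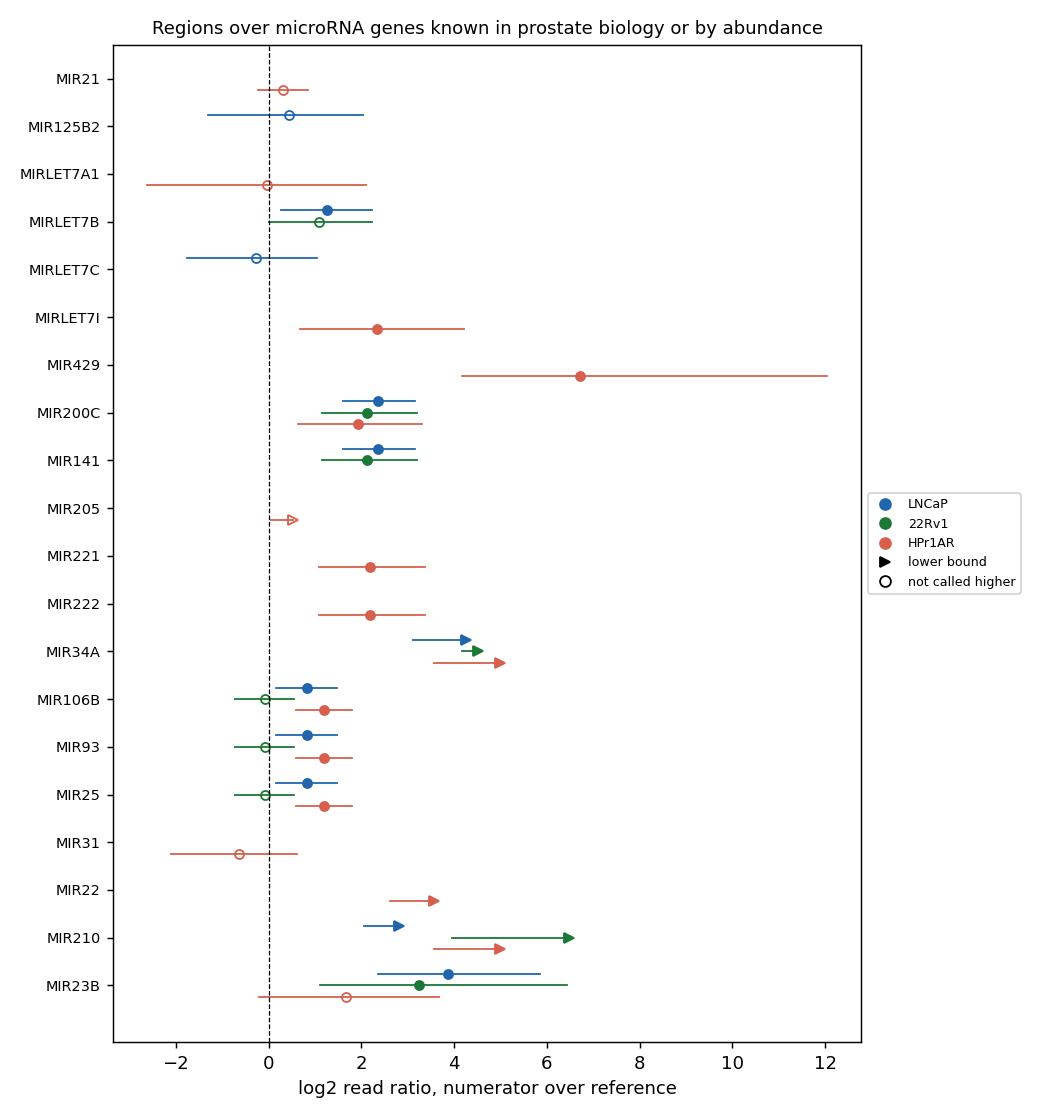
Log2 read ratio, numerator over reference (x axis), of the region over each listed microRNA gene (rows) in LNCaP, 22Rv1 and HPr1AR, with 95% exact intervals; arrowheads are lower bounds, with a line to the lower limit, and open symbols were not called higher. MIR34A and MIR210 stand above 2 in every line, and MIR106B, MIR93 and MIR25 share 1 region whose interval spans 0 in 22Rv1.

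Across lines, 110 microRNA genes were listed in all 3 tables, 45 in 2 and 82 in 1, and all 110 had regions that overlap in the 3 lines. Of the 110, 65 (59.1%) were called higher in all 3 lines, 20 in 2, 9 in 1 and 16 in none. Among the 12215 genes of any kind with an exon region in all 3 tables, 83.9% were higher in all 3. A gene counts as higher when any of its regions is, and genes of any kind had a median of 3 exon regions in each line. Of the microRNA genes, 167 of 170 in LNCaP, 143 of 144 in 22Rv1 and 186 of 188 in HPr1AR had 1.

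Genes listed in a single line numbered most in HPr1AR. LNCaP alone listed 20, of which 10 were higher, 22Rv1 alone 15, of which 13 were, and HPr1AR alone 47, of which 28 were. Genes of any kind listed in a single line were not counted. By region, 37.6% of 110260 were higher in LNCaP, 54.3% of 77311 in 22Rv1 and 38% of 139373 in HPr1AR. The tables differ in depth and length, whose part in these counts was not tested.

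The genes higher in all 3 lines with the smallest adjusted p were MIR1182, MIR4292, MIR4737, MIR1238, MIR34A, MIR4665, MIR4667, MIR922, MIR210, MIR671, MIR4749, MIR5006, MIR4800, MIR941-1 and MIR941-3. All but MIR34A lay in a region over an exon of another gene in at least 1 line. MIR4737, in an exon of HEATR6, held at least 58 numerator reads against 4 in LNCaP, at least 62 against 3 in 22Rv1 and at least 55 against 0 in HPr1AR. MIR4292, within RABL6, held at least 58 against 3, at least 64 against 0 and at least 56 against 7. MIR922, within the autophagy gene RUBCN, held at least 58 against 3, at least 65 against 3 and at least 58 against 16.

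The same held for MIR5006, in an exon of VWA8, with 61 numerator reads against 7 in LNCaP, 39 against 0 in 22Rv1 and at least 55 against 2 in HPr1AR. MIR4665, on the strand opposite to KIAA2026, held 64 against 14, 64 against 7 and at least 57 against 13. For the other genes of this group, MIR1238, MIR4667, MIR671, MIR4749 and MIR4800, the log2 read ratio or its lower bound ran from 2.96 to 4.48. MIR941-1 and MIR941-3 are near-identical copies in DNAJC5 that shared 1 region, so reads cannot be assigned to either, and the region held 37 reads against 2 in LNCaP, 42 against 2 in 22Rv1 and at least 57 against 13 in HPr1AR.

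**Figure D5:**
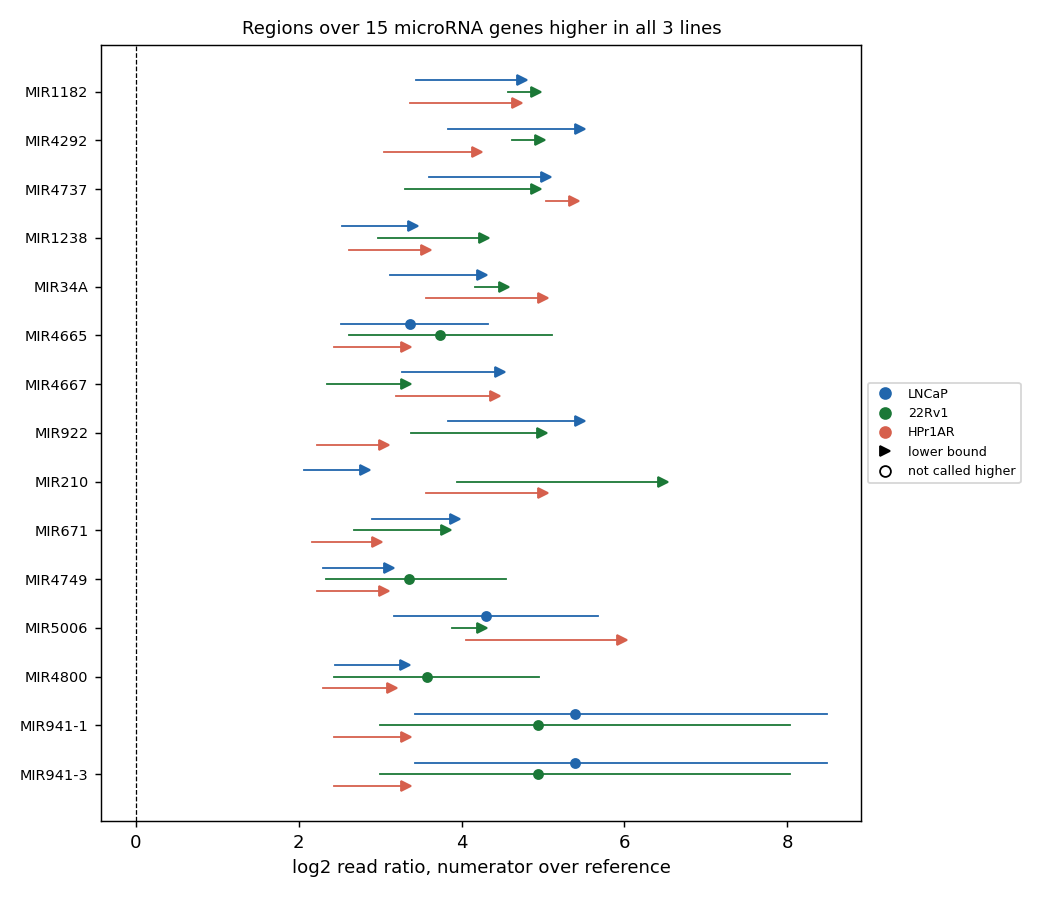
Log2 read ratio, numerator over reference (x axis), of the 15 microRNA genes higher in all 3 lines with the smallest adjusted p (rows), in LNCaP, 22Rv1 and HPr1AR, with 95% exact intervals or, for arrowheads, a lower bound and its lower limit. Every lower limit lies above 2, as in MIR210, whose bound is 2.81 in LNCaP, 6.48 in 22Rv1 and 5.0 in HPr1AR.

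Other regions led in 1 or 2 lines. In LNCaP these were MIR760, opposite an exon of BCAR3, with 57 numerator reads against 0, MIR4489, within SIPA1, with at least 58 against 2, MIR3621, within GRIN1 and LRRC26, with at least 58 against 3, and MIR3661, opposite PPP2CA, also with at least 58 against 3. MIR760 and MIR4489 were listed in LNCaP alone. MIR3661 was higher in 22Rv1 (50 against 27) and HPr1AR (at least 64 against 64) too. In 22Rv1 MIR4786 held 57 reads against 1 and MIR4482 held 54 against 1, and in HPr1AR they held 49 against 1 and 29 against 2.

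At the other end, 16 genes were listed in all 3 lines and called higher in none. Among them MIR1231, named after its values were seen, stayed undetermined in LNCaP and MIR1282 in 22Rv1, with reads bounded only from below. MIR3609, in an intron of TRRAP and named after its values were seen, held 19 numerator reads against 57 in LNCaP, 21 against 47 in 22Rv1 and 26 against 77 in HPr1AR. Its log2 read ratio was -0.41 in LNCaP (-1.24 to 0.36), -0.61 in 22Rv1 (-1.43 to 0.16) and -0.38 in HPr1AR (-1.08 to 0.28). All 3 intervals span 0. The single member with a lower value at an unadjusted p under 0.05 was MIR3652 in 22Rv1, named after its values were seen, in an exon of the chaperone gene HSP90B1, with 11 reads against 33 (log2 read ratio -1.04, -2.17 to -0.02). Its adjusted p by the exact binomial test was 0.0791.

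MIR1306 and MIR3618, named after their values were seen, lie in an exon of DGCR8 itself, and Microprocessor is known to cut hairpins in the DGCR8 messenger RNA. Their shared region on chromosome 22 held at least 60 numerator reads against 9 in LNCaP, 65 against 6 in 22Rv1 and at least 59 against 24 in HPr1AR. The log2 read ratio was at least 3.91 in LNCaP, 3.98 in 22Rv1 (2.79 to 5.48) and at least 2.49 in HPr1AR, and the region was higher in each line. In 22Rv1 the window lay 65 bp from the MIR3618 hairpin and 141 bp from the MIR1306 hairpin. In LNCaP and HPr1AR it lay at least 296 and 106 bp from MIR1306.

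The genes of the microRNA pathway were listed almost throughout, and most had a higher exon region. Of 30 genes, 28 were listed in each line, all but LIN28A and LIN28B, whose proteins block let-7 maturation. At least 1 region was higher for 25 in LNCaP, 24 in 22Rv1 and 28 in HPr1AR, and among all genes with an exon region these shares were 87.8%, 88.8% and 90.9%. The pathway counts are thus near the background, and XPO5, which encodes exportin 5, had 1 lower region beside 2 higher ones in LNCaP and in HPr1AR.

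By step, all 7 genes of the Argonaute complex (AGO1 to AGO4 and the scaffold genes TNRC6A, TNRC6B and TNRC6C) had at least 1 higher region in every line. By the same rule 87.8%, 88.8% and 90.9% of all genes with an exon region were higher. The higher regions among these genes ran from 1 of 13 for AGO2 in LNCaP to 7 of 11 for TNRC6C in 22Rv1 and HPr1AR. By the region with most reads of each gene, TNRC6C had the largest read ratio or bound among them in each line, with at least 58 numerator reads against 3 in LNCaP, at least 65 against 3 in 22Rv1 and at least 56 against 4 in HPr1AR. At the Drosha step 6 of 8 genes were higher in LNCaP, 5 in 22Rv1 and 8 in HPr1AR. SRSF3, which encodes a splicing factor that helps Microprocessor, was not called in LNCaP or 22Rv1 and had a ratio under 0 in both, at 10 reads against 32 in LNCaP and 12 against 34 in 22Rv1, and it was higher in HPr1AR at 30 against 30.

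The region with most reads of the m6A reader gene HNRNPA2B1 was higher in LNCaP (62 reads against 69, log2 read ratio 1.02), undetermined in 22Rv1 (at least 37 against 58) and not higher in HPr1AR (49 against 120, -0.10, -0.61 to 0.39). Over its 4 regions per line, 2 were higher in LNCaP, 0 in 22Rv1 and 3 in HPr1AR. DICER1 was higher in each line, with at least 62 reads against 19 in LNCaP, at least 66 against 7 in 22Rv1 and at least 59 against 24 in HPr1AR. The precursor exonuclease gene DIS3L2 had 60 against 2, 56 against 1 and at least 56 against 3. The 3 m6A writer genes METTL3, METTL14 and WTAP were higher in all lines, each by at least 1 region.

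Marker genes were read as a check of the labels. Of 8 luminal and androgen-response markers 8 were listed in LNCaP, 8 in 22Rv1 and 4 in HPr1AR, where KLK3, KLK2, TMPRSS2 and FOLH1 were not listed. Of 5 basal markers 1 was listed in LNCaP, 1 in 22Rv1 and 5 in HPr1AR. Of the 3 stroma markers, COL1A1 and VIM were listed and higher in every line and DES was listed in none. VIM held 29 numerator reads against 0 in LNCaP, 38 against 2 in 22Rv1 and at least 58 against 14 in HPr1AR. The blood cell genes PTPRC and CD3E were listed in none. Their part in which microRNA genes each table lists was not tested.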

How the data were processed

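Cells were grown and RNA was pulled down and sequenced as 50 bp paired reads, per the labels' protocols. The authors deposited 1 table per line of regions built from neighbouring windows, with log2 folds, p-values and adjusted p-values, as the headers name them. For the aligner, for the way windows were counted and for the test behind the p-values, nothing is given in the sources used here. The submitters' processing notes name hg38, yet of 395 hairpins that flanking distances place on both sides, 377 had the RefSeq length and 5 the GRCh38 start, so positions are printed as the tables give them. Columns with values of single samples that were left unused numbered 0.

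Whole reads a and b were sought that give each deposited log2 fold, as a constant plus the log2 of a with a prior added, less 2 times that of b, and its p-value within 0.05 of the ratio's trend (up to 150 numerator reads; a p of 0 was taken as 308 in -log10). They were found for 97.1% of regions with a p above 0 in LNCaP, 95.2% in 22Rv1 and 99.95% in HPr1AR, and for 5.08%, 0.367% and 0.173% after random shifts of the fold. Other reads are lower bounds. Windows are 20 bp wide at 10 bp steps. Medians add 0.5 read to each pull-down, and a reference of 0 reads was set to a floor of 3 for single ratios. Hairpins whose placed length differs from RefSeq, or is over 150 bp with no RefSeq length, were not placed. For 6000 simulated regions per line, with 200 changed per size and 1 window each, fold and p were made with the formula that the rebuild inverts. Reads were exact in 100% of each line, which shows only that the formula can be inverted, not that it holds for the deposited regions. A log2 ratio of 2 was called in 19% in LNCaP, 28.5% in 22Rv1 and 28.0% in HPr1AR, and a log2 ratio of 4 in 66%, 68% and 71%. These rates are for read numbers drawn from regions of all kinds, which had fewer reads in the median than the members. The simulated changed regions were also a smaller share than the 37.6%, 54.3% and 38% of deposited regions called higher. Fewer changed regions make the adjusted threshold stricter, so the rates may understate detection in the deposited regions. Even so, a region not called is not shown to be equal.

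The design foresaw the authors' calls and this ratio, and the members and lists were chosen with earlier results of these data known. Genes named were, in each line, the 8 higher members with the smallest adjusted p, any lower member, 15 genes higher in all 3 lines by adjusted p, the listed prostate microRNAs and the pathway genes, and others are marked in the text. TUT4 and TUT7 stood on the list under 2 symbols each and were counted once. Python 3 with numpy, pandas, scipy and matplotlib was used.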

Additional observations from a re-analysis of the deposited data

How the results depend on the processing

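No paired analysis was possible because the tables hold no value per sample, and for the same reason no replicate could be left out. Of 41 alternatives with a value, 28 kept the count within 1.5 times or the median within its 95% order-statistic interval. Without regions over a host gene exon, the regions under the authors' adjusted p numbered 34 of 34 in LNCaP, 20 of 20 in 22Rv1 and 36 of 37 in HPr1AR, by the authors' deposited table, and those higher by the ratio 12 (35.3%), 17 (85.0%) and 17 (45.9%), against 62.0%, 69.2% and 68.5% of all members. The median log2 read ratio was then 1.18 in LNCaP and 3.26 in 22Rv1, against 1.78 and 2.11 over all members; the cause was not tested. With unique pairs of whole reads only, 61 of 118 regions were higher in LNCaP and 72 of 125 in HPr1AR, since regions with a p of 0 (32 and 52), with no whole reads found (7 and 0) or with more than 1 pair (6 and 1) drop out. Regions under 500 bp, an alternative chosen after seeing the data, gave 4, 4 and 8 higher. A threshold of 0.01, a pseudocount of 1 read, PE overlaps alone, 1 region per gene and a shared read rate moved no result past these limits. Depth limits the calls: members with few reads have intervals of several log2 units.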
